A study of Mus musculus with 3 samples.

Results

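The peaks described here lay in intergenic sequence, carried no repeat label and had their centres more than 100 kb from the nearest annotated transcription start site (TSS). They are called distant non-repeat peaks, or distant Seh1 and distant IgG peaks, and they were picked from the class, repeat label and distance that the authors' annotation gave each peak. The rule found 1189 of 16113 peaks in the Seh1 list and 626 of 5314 peaks in the IgG list, or 1815 of 21427 in all. Chromatin immunoprecipitation followed by sequencing (ChIP-seq) was performed on primary neural stem cells of wild-type mice, grown from newborn cortex in a medium with the growth factors EGF and bFGF and kept proliferating. There were 3 libraries, 1 library per group. They were a precipitation with an antibody to Seh1, a control precipitation with IgG, which has no chromatin target of its own, and an input of unprecipitated chromatin. All of them had the same genotype and the same treatment, which the labels call growth medium, and only the Seh1 and the IgG library have a peak list here.

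Seh1 is a subunit of the Nup107 complex, the Y-shaped scaffold of the nuclear pore, and also of GATOR2, a regulator of the growth kinase mTORC1. Some nucleoporins also contact chromatin, at the pore or inside the nucleus. Long stretches without protein-coding genes, called gene deserts, often flank genes of developmental transcription factors and of neuronal adhesion proteins, and some hold enhancers that act on these genes over long distances. Large deserts are in general rich in A and T bases, and many of them lie against the nuclear lamina.

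Each value below comes from 1 library, so none has a replicate error, and no test compares the antibodies. Intervals are 95% exact binomial (shares), exact Poisson (densities) or log-scale (ratios) intervals. They cover counting error only and treat peaks as independent, although neighbouring peaks are not. The deposited score was 0 for every peak, so the lists give positions and widths but no enrichment. Read depth is unknown, and therefore shares and densities within a list were compared rather than the lengths of the lists. The cell type could not be checked against markers from peak positions.

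A few distant Seh1 peaks lay on the promoter of a gene that the authors' annotation did not use. They give the only peak sequences that could be read, since promoter windows from RefSeq (GRCm38.p6, the assembly also called mm10) were at hand, each running from 250 bases before to 50 bases after a start. Of the 1189 distant Seh1 peaks, 20 overlapped such a window (1.68%, 1.03 to 2.59%), against 0 of 626 distant IgG peaks, a count that allows up to 0.479%. Over the whole lists the shares were 1.12% of Seh1 peaks, inside the interval of the distant Seh1 peaks, and 0.320% of IgG peaks. These 20 peaks touched 22 windows of 21 genes, and 15 of them held the start itself. The genes were of long non-coding RNAs or were annotated as protein-coding, all with provisional Gm names. The windows below were shown, after their values were seen, because at least 200 of their bases lay in a peak or because they lie in the 1-Mb bin with the most distant Seh1 peaks. Each is written 5′ to 3′ on the strand of its gene, with the bases inside the Seh1 peak in capitals.
Gm32476: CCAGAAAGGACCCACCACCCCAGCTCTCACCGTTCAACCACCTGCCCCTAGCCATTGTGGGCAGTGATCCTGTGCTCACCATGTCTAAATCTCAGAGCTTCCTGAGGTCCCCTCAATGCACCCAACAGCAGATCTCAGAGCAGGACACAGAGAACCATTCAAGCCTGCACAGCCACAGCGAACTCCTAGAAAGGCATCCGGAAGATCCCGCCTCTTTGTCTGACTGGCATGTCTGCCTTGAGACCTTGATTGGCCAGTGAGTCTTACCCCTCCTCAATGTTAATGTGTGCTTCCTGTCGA
Gm31746: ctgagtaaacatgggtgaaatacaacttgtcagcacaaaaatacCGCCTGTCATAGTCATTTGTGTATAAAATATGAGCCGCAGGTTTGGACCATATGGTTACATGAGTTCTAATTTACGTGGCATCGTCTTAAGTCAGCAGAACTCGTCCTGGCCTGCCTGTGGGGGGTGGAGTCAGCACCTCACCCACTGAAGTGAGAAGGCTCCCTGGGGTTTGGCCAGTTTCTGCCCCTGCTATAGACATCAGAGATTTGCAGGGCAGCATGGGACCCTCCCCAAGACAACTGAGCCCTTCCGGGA
Gm36227: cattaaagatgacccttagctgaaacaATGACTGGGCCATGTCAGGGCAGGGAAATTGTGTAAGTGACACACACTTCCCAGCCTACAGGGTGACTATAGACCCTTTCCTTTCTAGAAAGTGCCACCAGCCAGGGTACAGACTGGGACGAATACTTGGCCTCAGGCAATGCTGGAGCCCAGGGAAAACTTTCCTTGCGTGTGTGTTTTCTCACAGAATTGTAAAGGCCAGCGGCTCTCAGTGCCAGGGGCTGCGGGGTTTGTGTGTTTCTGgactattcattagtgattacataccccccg
Gm12708: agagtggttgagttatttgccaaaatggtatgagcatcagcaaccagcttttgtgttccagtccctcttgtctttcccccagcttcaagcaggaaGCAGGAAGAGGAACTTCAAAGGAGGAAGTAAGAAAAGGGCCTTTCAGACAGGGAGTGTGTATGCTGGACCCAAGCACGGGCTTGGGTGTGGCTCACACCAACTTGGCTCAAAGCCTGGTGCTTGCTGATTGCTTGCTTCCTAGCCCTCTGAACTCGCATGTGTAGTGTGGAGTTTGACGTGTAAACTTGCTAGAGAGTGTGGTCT
Gm42320: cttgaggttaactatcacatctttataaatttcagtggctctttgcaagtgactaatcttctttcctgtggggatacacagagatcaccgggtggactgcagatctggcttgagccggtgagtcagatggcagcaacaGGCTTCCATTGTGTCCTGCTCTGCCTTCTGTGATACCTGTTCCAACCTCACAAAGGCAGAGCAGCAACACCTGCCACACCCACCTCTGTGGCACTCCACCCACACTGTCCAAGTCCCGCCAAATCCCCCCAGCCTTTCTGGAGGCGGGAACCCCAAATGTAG
The window of Gm32476 (chr13:65950469-65950768, minus strand) lay wholly inside a Seh1 peak of 390 bp. The window of Gm31746 (chr6:51061208-51061507, minus strand) shared 256 bases with its peak, and that of Gm36227 (chr9:41919149-41919448, minus strand) held a whole peak of 243 bp. The window of Gm12708 (chr4:95193054-95193353, plus strand) shared 205 bases with a peak whose nearest authors' gene was Jun, an AP-1 transcription factor gene 141 kb away. The window of Gm42320 (chr4:131617187-131617486, plus strand) shared 162 bases with a peak in the desert beside Ptpru.

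The 22 windows had a median GC content of 52.3% (48.0 to 58.3%) and a median of 4 CpG dinucleotides, against 52.7% and 7 over all 32851 windows of the table. For long non-coding RNA genes alone the medians of the table were 48.3% and 4. The GC box GGGCGG, common in housekeeping promoters, was in 0 of the 22 windows on either strand, against 35.7% of all windows. The E-box CAGCTG, a site of proneural basic helix-loop-helix factors, was in 8 of 22 (36.4%, against 16.3% of all), and ACAAAG, the core of many Sox sites, also in 8 of 22 (36.4%, against 18.7%). The TATA box TATAAA was in 5 (22.7%, against 13.6%), CCAAT in 10 (45.5%, against 37.4%), the AP-1 site TGACTCA in 3 (13.6%, against 5.20%) and the E-box CACGTG in 0 (against 7.15%). Of the 22 windows, 3 overlap each other on the same peak (2 of Gm32476 and 1 of Gm46425) and are counted singly, all 3 for CCAAT and ACAAAG and 2 for CAGCTG. The windows of Gm19428, Gm53057, Gm17353 and Gm45966 lie nearby on chromosome 13, all with CCAAT and most with ACAAAG. Windows so close together may not be independent, and motif shares for long non-coding RNA genes alone were not computed. None of these motifs contains another, and the counts are matches of letters in a few windows, not binding sites.

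Distant non-repeat peaks made up less of the Seh1 list than of the IgG list. Their share was 7.38% (6.98 to 7.79%) of Seh1 peaks and 11.8% (10.9 to 12.7%) of IgG peaks, a ratio of 0.626 (0.572 to 0.687). Non-repeat intergenic peaks within 100 kb went the other way, with 19.2% of Seh1 peaks and 13.2% of IgG peaks (ratio 1.45, 1.35 to 1.57). Among all non-repeat intergenic peaks, the distant ones were therefore 27.8% of 4278 in the Seh1 list and 47.2% of 1327 in the IgG list. Repeat-labelled intergenic peaks beyond 100 kb had nearly the same ratio between lists as the distant non-repeat peaks, at 0.662 (0.615 to 0.713). Both lists thus had like shares of non-repeat peaks beyond the limit, 39.8% of 2991 for Seh1 and 41.1% of 1524 for IgG, and the interval of this ratio included 1 (0.968, 0.898 to 1.04).

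Distance set the lists apart. Beyond 200 kb lay 509 distant Seh1 peaks (42.8%, 40.0 to 45.7%) and 420 distant IgG peaks (67.1%, 63.3 to 70.8%). The median distance was 177.5 kb (170.5 to 186.9 kb) for Seh1 and 293.3 kb (266.6 to 318.2 kb) for IgG. Beyond 500 kb lay 85 distant Seh1 peaks (7.15%) and 146 distant IgG peaks (23.3%), and beyond 1000 kb lay 15 (1.26%) and 39 (6.23%).

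**Figure D1:**
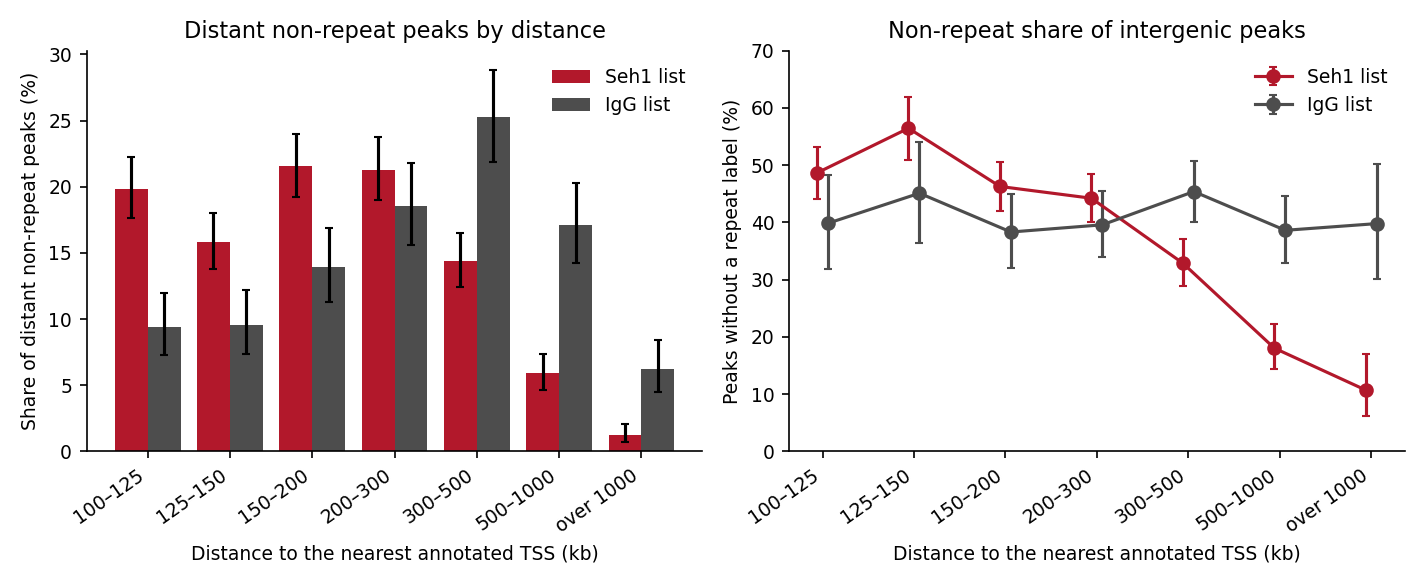
Left, the share of distant non-repeat peaks in each bin of distance (kb) to the nearest annotated TSS (bars, Seh1 red and IgG grey); right, the share of all intergenic peaks in the bin that carry no repeat label (points); error bars are 95% exact binomial intervals. The Seh1 points end at 10.7% beyond 1000 kb, while the IgG points stay between 38.3 and 45.4%.

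The share of intergenic peaks that carried no repeat label depended on distance in the Seh1 list and hardly in the IgG list. From 100 to 125 kb it was 48.7% (44.1 to 53.2%) for Seh1 and 39.9% (31.9 to 48.2%) for IgG. From 125 to 150 kb the Seh1 share was 56.5%, and from 150 to 200 kb and from 200 to 300 kb it was 46.3 and 44.2%. It was 32.9% from 300 to 500 kb, 18.04% from 500 to 1000 kb and 10.7% (6.12 to 17.1%) beyond 1000 kb. The IgG share was 39.8% (30.0 to 50.2%) beyond 1000 kb, with an interval that overlapped that of its nearest bin. As shares of their lists, distant Seh1 peaks stood to distant IgG peaks at a ratio of 1.32 (0.993 to 1.75) from 100 to 125 kb and of 0.127 (0.0700 to 0.230) beyond 1000 kb.

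The limit itself cut through a continuous range. Just inside it stood Seh1 peaks near Ntm, which encodes neurotrimin, a neuronal adhesion protein (100066 bp), Gm4791 (100103 bp), D230030E09Rik (100162 bp), Chst15, a sulfotransferase gene (100259 bp), and Mmd (100310 bp). Just outside it stood Seh1 peaks near Ehbp1 (99904 bp), Wdr11 (99894 bp), Agtpbp1 (99874 bp), Irx1 (99833 bp) and Trim29 (99750 bp). For IgG the nearest inside were Mir344i (100076 bp), Csl (100202 bp) and Platr4 (100232 bp), and the nearest outside were Gnaz (99859 bp), Zfp386 (99808 bp) and Zswim2 (99165 bp). At the far end, the most remote Seh1 peaks lay 1625 kb from Gm31747, 1510 kb from Nudt12, 1493 kb from Cdh6, 1463 kb from Gm20826 on chromosome Y and 1460 kb from Lrrtm1. The most remote IgG peaks lay 1831 kb from B230118H07Rik, 1813 kb from Gm31747 and 1785 kb from Olfm4. The TSS of Gm20826 lay off the gene of that name in the RefSeq table, so its distance is uncertain, as for 14 of 1180 distant Seh1 and 3 of 618 distant IgG peaks with a matched gene.

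The regions were also set against the RefSeq table of GRCm38.p6, which lists 49603 genes and includes predicted ones. Among the starts of its promoter windows, 717 of 1187 distant Seh1 peaks on placed chromosomes (60.4%, 57.6 to 63.2%) and 196 of 626 distant IgG peaks (31.3%, 27.7 to 35.1%) had one within 100 kb. The values that follow use another measure, the distance to the body of a gene, and are not comparable with the authors' distance to a TSS. Of the 1187 distant Seh1 peaks, 280 (23.6%, 21.2 to 26.1%) had their centre inside a gene, against 103 of 626 (16.5%, 13.6 to 19.6%) distant IgG peaks. Of the 280 Seh1 peaks, 169 were in long non-coding RNA genes, 60 in pseudogenes, 41 in protein-coding genes and 10 in others. Of the 103 IgG peaks, 54 were in long non-coding RNA genes, 9 in pseudogenes, 34 in protein-coding genes and 6 in others.

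**Figure D2:**
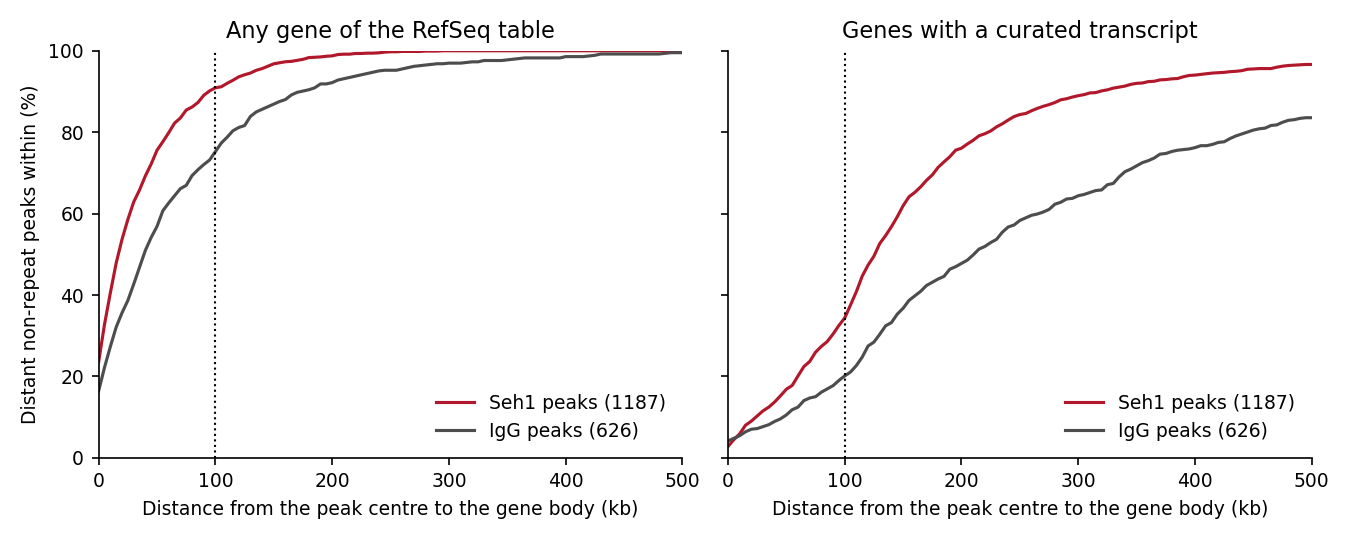
The share of distant non-repeat peaks (vertical axis, %) whose centre lies within a given distance (kb) of the body of a gene in the RefSeq table, for all genes (left) and for genes with a curated transcript (right); the dotted line marks 100 kb. The red Seh1 curve is above the grey IgG curve at 100 kb in both panels, with 90.9% against 75.2% on the left and 34.4% against 20.1% on the right.

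Within 100 kb of a gene body lay 1079 distant Seh1 peaks (90.9%) and 471 distant IgG peaks (75.2%), and the median gap to a gene was 16.9 kb for Seh1 and 38.1 kb for IgG. Gene-poor in the strict sense were 108 distant Seh1 peaks and 155 distant IgG peaks, which had no gene of this table within 100 kb. Of these, the Seh1 peak farthest from any gene lay 290.5 kb from Gm32122, and the farthest IgG peak lay 607.6 kb from Gm7931. Restricting the table to genes with a curated transcript moved the medians to 125.8 kb for Seh1 and 211.5 kb for IgG. Around distant Seh1 peaks the median number of protein-coding genes within 500 kb was 4, and 66 peaks (5.56%) had none. Around distant IgG peaks it was 1, and 148 peaks (23.6%) had none. Non-repeat intergenic peaks within 100 kb had medians of 10 (Seh1) and 7 (IgG), and distant repeat-labelled peaks had 2 and 1.5. The promoter windows within 500 kb of a distant peak had a median GC content of 51.0% for Seh1 and 46.9% for IgG. Such a value could be had for 1037 of 1187 distant Seh1 peaks and 370 of 626 distant IgG peaks, which had at least 3 windows, and the part of base composition in these differences was not tested.

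Deserts were next taken as gaps of over 200 kb between neighbouring protein-coding genes. The 1671 such gaps spanned 1091 Mb, and the sequence more than 100 kb inside them was divided by the length of the gap. Distant Seh1 peaks were dense in the shorter deserts and sparse in the longest. They numbered 256 in gaps of 200 to 500 kb, 370 in gaps of 500 to 1000 kb, 163 in gaps of 1000 to 2000 kb and 48 in longer gaps. Per Mb these were 2.37 (2.09 to 2.68), 1.81, 0.679 (0.579 to 0.791) and 0.235 (0.173 to 0.311). Distant IgG peaks had 0.546 (0.416 to 0.704), 0.631, 0.683 and 0.689 (0.580 to 0.813) per Mb in the same classes, with intervals that overlapped.

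**Figure D3:**
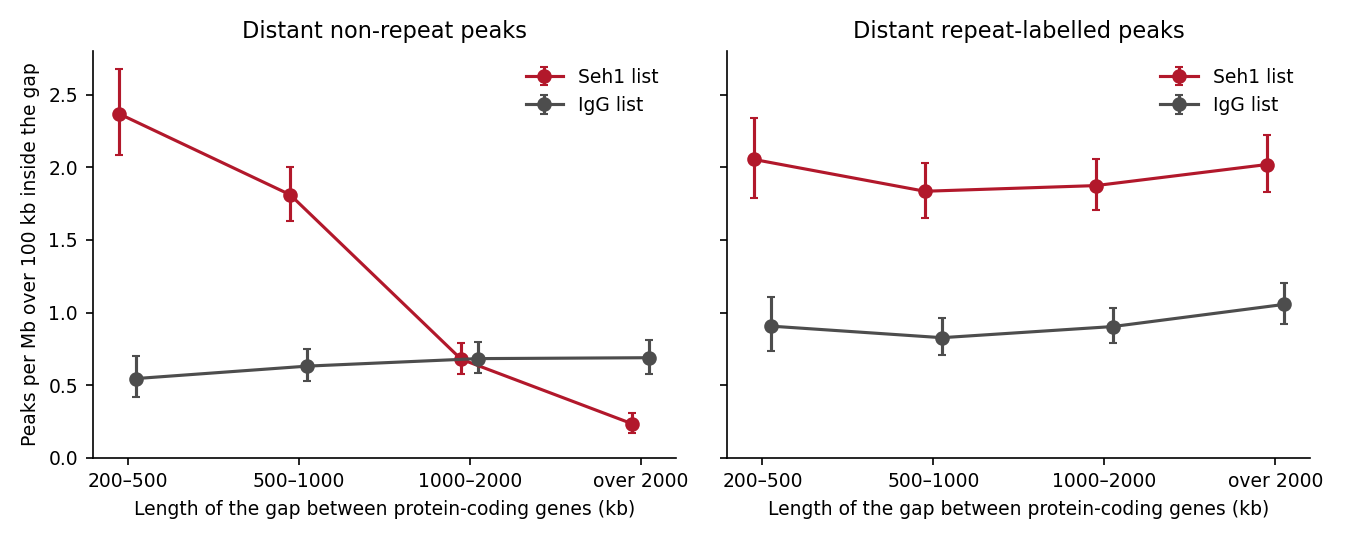
Peaks per Mb of sequence more than 100 kb inside gaps between protein-coding genes, by the length of the gap (kb), for distant non-repeat peaks (left) and distant repeat-labelled peaks (right); points are Seh1 (red) and IgG (grey), with 95% exact Poisson intervals. Of the 4 lines, the red line on the left shows the steepest slope, with 2.37 peaks per Mb in gaps of 200 to 500 kb and 0.235 in gaps over 2000 kb.

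Repeat-labelled Seh1 peaks of the same deserts did not share this slope. Their densities were 2.05 (1.79 to 2.34), 1.84, 1.87 and 2.02 (1.83 to 2.22) per Mb from the shortest to the longest class, and those of repeat-labelled IgG peaks were 0.907, 0.827, 0.904 and 1.06 per Mb. Thus repeat-labelled Seh1 peaks outnumbered non-repeat ones 413 to 48 in gaps over 2000 kb, where non-repeat IgG peaks numbered 141. The median GC content of promoter windows inside the gaps was 46.7, 46.0, 44.0 and 42.0% from the shortest to the longest class. Base composition and gap length cannot be told apart here.

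Counted over all sequence more than 100 kb from every gene of the RefSeq table (230.5 Mb), non-repeat Seh1 and IgG peaks also differed. Non-repeat intergenic Seh1 peaks had 0.460 per Mb there and 1.71 per Mb elsewhere, a ratio of 0.270 (0.223 to 0.327). Non-repeat intergenic IgG peaks had 0.673 per Mb there and 0.479 per Mb elsewhere, a ratio of 1.40 (1.19 to 1.66). In sequence over 100 kb from every protein-coding gene, as used for the deserts, these ratios were 0.823 (0.768 to 0.883) for Seh1 and 1.91 (1.71 to 2.13) for IgG. They count all non-repeat intergenic peaks there, 1047 for Seh1 and 562 for IgG, whereas the desert densities count distant peaks only. No distant peak can lie within 100 kb of an annotated non-coding start, and such sequence was not taken out of the deserts. Repeat-labelled intergenic peaks of both lists were denser in sequence over 100 kb from every gene, with ratios of 1.29 (1.18 to 1.42) for Seh1 and 1.37 (1.19 to 1.58) for IgG. Over 100 kb from every protein-coding gene, the repeat-labelled ratios were 1.475 (1.388 to 1.568) for Seh1 and 1.774 (1.62 to 1.944) for IgG. Elsewhere includes introns and exons, where no intergenic peak can lie, so the ratios hold for the whole sequence and not for intergenic sequence alone.

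Distant Seh1 peaks gathered in particular deserts. The gap with the most lay on chromosome 2 between Cdh26, a cadherin gene, and 4930591A17Rik, where 927.6 kb held 19 distant Seh1 peaks and 0 distant IgG peaks. The gap between Tbc1d22a, a Rab GTPase-activating protein gene, and Tafa5, which encodes a secreted chemokine-like protein (chromosome 15, 1046 kb), held 16 and 2. That between Matn1, the cartilage protein matrilin, and Ptpru, a receptor tyrosine phosphatase (chromosome 4, 813 kb), held 14 and 0. Between Thap1 and Zfp703, both zinc-finger protein genes (chromosome 8, 813.2 kb), were 11 and 0. Between Glrx3 and Tcerg1l (chromosome 7) were 10 and 0, and between Sall3 and Galr1 (chromosome 18) 10 and 1. The gap beside Tle3, a Groucho corepressor gene (chromosome 9), and that between the zinc-finger genes Tshz3 and Zfp536 (chromosome 7) each held 9 and 0, and the gap between Gm6569 and Adgrb1 (chromosome 15) held 9 and 1. The gap between 9530057J20Rik and Gm15319 (chromosome 8, 402.3 kb), whose peaks lie in a bin dense in IgG peaks, held 11 distant Seh1 peaks and 7 distant IgG peaks, the most of any gap for IgG. Next for IgG, between the cadherin genes Cdh8 and Cdh11 (3214 kb) were 1 distant Seh1 peak and 6 distant IgG peaks, and beside Cadm2, a synaptic adhesion gene (2236 kb), 0 and 5.

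In bins of 1 Mb, 52 bins with 5 or more distant Seh1 peaks held 397 of them (33.4%, 30.7 to 36.2%). These 52 bins, chosen by their distant peaks, held a median of 15 Seh1 peaks of any class. Over all 2541 bins with a Seh1 peak the median was 5. For IgG, 4 such bins held 40 (6.39%, 4.60 to 8.60%). A fixed count per bin is reached more easily in the longer list, so these shares do not compare the antibodies. The richest Seh1 bins were chromosome 4 from 131 to 132 Mb (14 peaks, Ptpru and A930031H19Rik), chromosome 7 from 36 to 37 Mb (12, Tshz3 and Zfp507), chromosome 8 from 20 to 21 Mb (11, 6820431F20Rik) and from 26 to 27 Mb (11, Thap1), and, tied with 5 others at 10 peaks, chromosome 2 from 178 to 179 Mb (Cdh26). The bin at 20 Mb of chromosome 8 held 7 distant IgG peaks, 3 of the tied bins held 1 each, and the rest of these bins held 0. The richest IgG bins were chromosome 16 from 3 to 4 Mb with 16 peaks, all nearest to Olfr161, an olfactory receptor gene, chromosome 4 from 147 to 148 Mb with 10, chromosome 8 from 20 to 21 Mb with 7, chromosome 4 from 146 to 147 Mb with 7 and, tied with others, from 31 to 32 Mb with 4. These 5 bins held 2, 2, 11, 1 and 0 distant Seh1 peaks. Of the 573 bins with a distant Seh1 peak and the 449 with a distant IgG peak, 150 had both (26.2% and 33.4%).

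At closer range, 241 distant Seh1 peaks (20.3%, 18.02 to 22.7%) had another Seh1 peak within 10 kb, against 77 distant IgG peaks (12.3%, 9.83 to 15.1%) with another IgG peak. The share over the whole Seh1 list was 20.8% and over the whole IgG list 18.7%. A longer list has more neighbours at any given distance, so these shares do not compare the antibodies. Without 14 bins that hold at least 20 IgG peaks each, the IgG share was 5.56%. Another Seh1 peak within 100 kb was found for 79.1% of distant Seh1 peaks and 76.8% of all Seh1 peaks. For IgG these shares were 43.45% and 47.35%. At this range, grouping was thus not particular to the distant peaks of either list.

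The gene with the most distant Seh1 peaks was Tshz3, which encodes a teashirt-family zinc-finger transcription factor of neuronal and kidney development. Its 13 peaks lay on both sides, 4 upstream and 9 downstream. The upstream peaks were 387.6, 317.6, 188.3 and 115.8 kb from the TSS, and the downstream peaks ran from 107.6 kb (chr7:36805570-36805813) to 530.6 kb (chr7:37228610-37228852). The widest of them, 540 bp at chr7:37077903-37078442, lay 380.1 kb downstream. The IgG list gave Tshz3 no peak of any class, and the Seh1 list gave it 16.

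5730507C01Rik also had 13 distant Seh1 peaks and 0 distant IgG peaks, over a stretch of chromosome 12 up to 1144 kb from its TSS. This stretch was not a desert in the RefSeq table, since its widest peak (656 bp) lay inside the protein-coding gene Gm3973. 6820431F20Rik (11 and 7) and 1700030C10Rik (11 and 3) followed, then 4930591A17Rik (10 and 0), and Cdh26, Ptpru and 4930465M20Rik (9 and 0 each). The peaks of Ptpru all lay downstream of its TSS, from 148.1 kb (chr4:131690028-131690303) to 361.4 kb (chr4:131476705-131477100). Those of Cdh26 lay 115.5 to 398.6 kb downstream, and those of 4930591A17Rik, at the other end of the same gap, lay 180.7 to 435.4 kb upstream. The genes with the most distant IgG peaks were Olfr161 (2 Seh1 and 16 IgG peaks), 6820431F20Rik (11 and 7), 4933438K21Rik (0 and 5), A330008L17Rik (0 and 5) and Cadm2 (0 and 5). In all, 700 genes had a distant Seh1 peak and 449 a distant IgG peak, and 127 genes had both (18.1% of the Seh1 and 28.3% of the IgG genes).

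**Figure D4:**
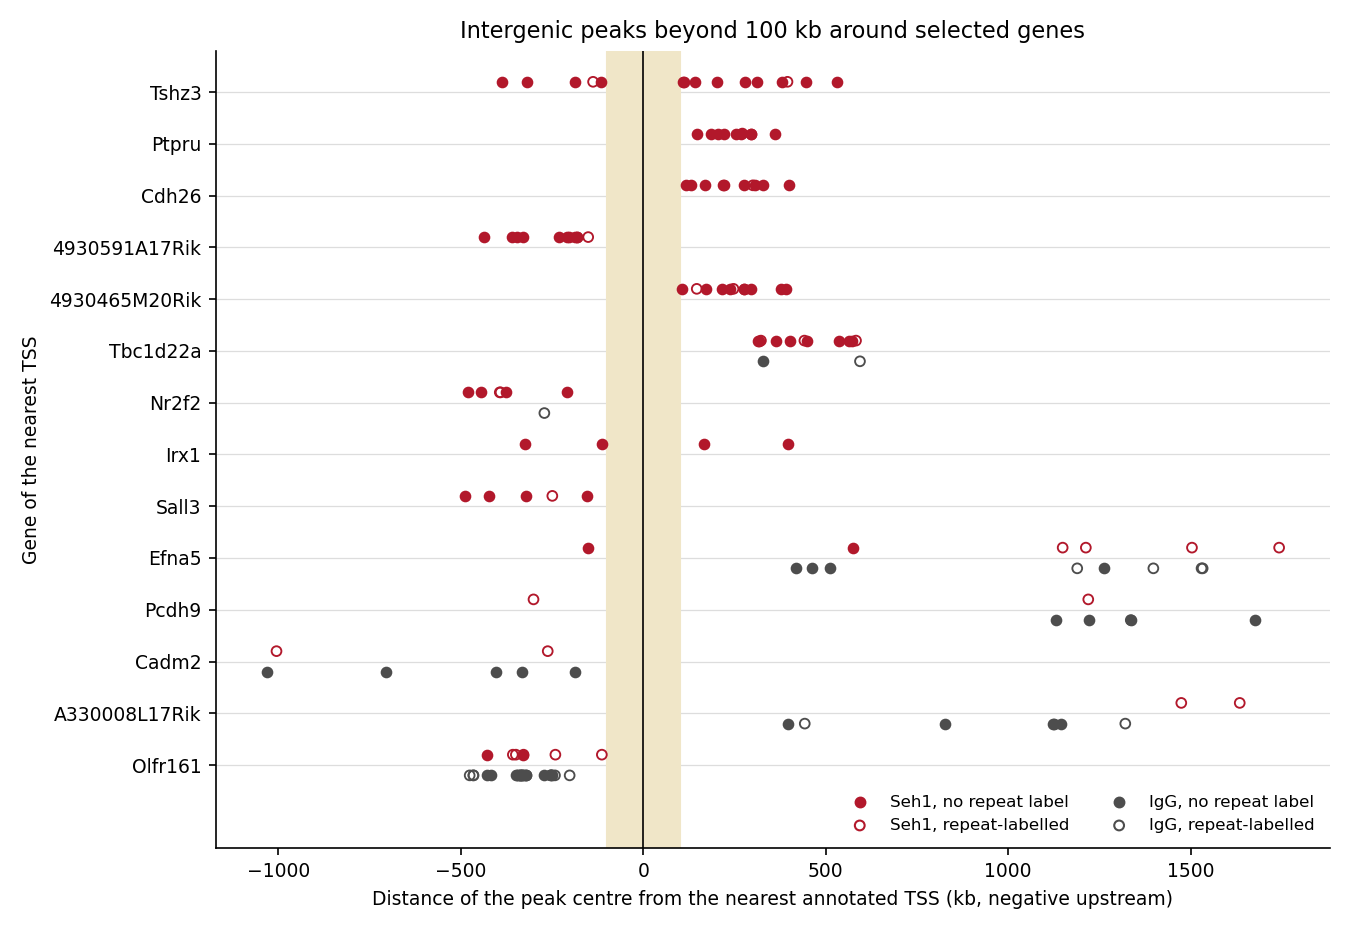
Intergenic peaks beyond 100 kb, by distance (kb, negative upstream) from the TSS of their nearest gene, for 14 genes picked from those with many distant peaks in the Seh1 list (upper rows) or the IgG list (lower rows). Filled circles are non-repeat peaks and open circles repeat-labelled ones, Seh1 in red above IgG in grey, and the shaded band is the excluded 100 kb on each side. Tshz3 has 13 filled red circles on both sides and no grey one, while Pcdh9 has 4 filled grey circles and no filled red one. Not shown, though among the genes with the most distant peaks, are 5730507C01Rik (13 Seh1 and 0 IgG), 6820431F20Rik (11 and 7), 1700030C10Rik (11 and 3) and 4933438K21Rik (0 and 5).

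The nearest TSS was next read by gene class. A gene beside a large gap has more room for such peaks, so each list was set against all 21779 protein-coding genes and against the 2779 that border a gap of over 200 kb. At least 1 distant Seh1 peak was given to 501 protein-coding genes (2.3%), and to 424 of those beside a gap (15.3%). At least 1 distant IgG peak was given to 298 (1.37%), and to 272 beside a gap (9.79%).

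Developmental transcription factor genes stood out by count on the Seh1 side. Of 57 genes of factors that pattern embryonic tissues, 17 (29.8%, 18.4 to 43.4%) had a distant Seh1 peak and 3 (5.26%, 1.10 to 14.6%) a distant IgG peak. Of the 47 beside a gap the shares were 36.2% and 6.38%, against the 15.3% and 9.79% above. These genes were given 48 distant Seh1 peaks and 3 distant IgG peaks, and without Tshz3, 35 and 3. Nr2f2, which encodes the nuclear receptor COUP-TFII, had 4, all upstream, from 210 to 479.5 kb away, the widest of 552 bp at chr7:70744150-70744701. Irx1, an Iroquois homeobox gene, had 4 between 112.5 and 397.5 kb on both sides. Tshz1, a relative of Tshz3, had 4 between 190.1 and 309.8 kb downstream. Of the spalt-type zinc-finger genes, Sall3 had 4 between 155.6 and 490.2 kb upstream, and Sall1 had 3 between 138.8 and 614.1 kb upstream. None of these 6 genes, Tshz3 included, had a distant IgG peak. The order was not particular to distant peaks. Of non-repeat intergenic peaks within 100 kb, the 57 genes were given 36 of 3089 for Seh1 and 3 of 701 for IgG. Distant repeat-labelled peaks hardly showed it, with 20 of 1802 for Seh1 and 9 of 898 for IgG. Counting all peaks of the lists, the 57 genes were given 155 of 16113 and 29 of 5314.

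Factors of the cell type under study were fewer. Of 28 neural stem cell and progenitor factor genes, 3 had a distant Seh1 peak and 1 a distant IgG peak. They were Tcf7l2, a Wnt effector (180.8 kb downstream), Mycn, a growth-promoting factor (111.2 kb upstream), and Sox5 (204.5 kb upstream). Of 29 neuron identity factor genes, 5 and 2 had one. Bcl11a, a cortical projection neuron factor, had 2 distant Seh1 peaks (102.9 and 128.7 kb downstream, the second at chr11:24209123-24209615 and 493 bp wide). Myt1l, a repressor of non-neuronal genes, had 2 (167 and 177.5 kb upstream). Tle4, Foxp1 and Zeb2 had 1 each, 273.5 kb upstream, 228.8 kb downstream and 257 kb upstream, and Zeb2 also had 1 distant IgG peak. Beside a gap, on 18 genes each, the Seh1 and IgG shares were 16.7% and 5.56% for stem cell factors and 27.8% and 11.1% for neuron factors. Over all protein-coding genes beside a gap they were 15.3% and 9.79%, so the Seh1 share of stem cell factors was near that of all.

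Adhesion genes, which also border large deserts, showed the other order. Of 55 synaptic adhesion and axon guidance genes, 13 (23.6%, 13.2 to 37.0%) had a distant Seh1 peak and 25 (45.5%, 32.0 to 59.5%) a distant IgG peak, although the IgG list is the shorter. They were given 16 distant Seh1 peaks and 47 distant IgG peaks, and beside a gap the shares were 25.5% and 51.1%. Efna5, a membrane-bound ephrin gene, had 2 distant Seh1 peaks (152.1 kb upstream and 573.7 kb downstream) and 4 distant IgG peaks (419 to 1263 kb). Lrrc4c, a netrin-G ligand gene, had 2 and 3, and Adgrl2, a latrophilin gene, had 2 and 1. Tenm3 (teneurin) and Epha4 (an ephrin receptor) had 1 and 1 each, and Slit3 (a guidance ligand) had 1 and 0. Distant repeat-labelled peaks given to the 55 genes numbered 56 of 1802 for Seh1 and 40 of 898 for IgG. The Seh1 count was the higher, but it was the smaller part of its class. Counting all peaks of the lists, these genes were given 129 and 156.

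**Figure D5:**
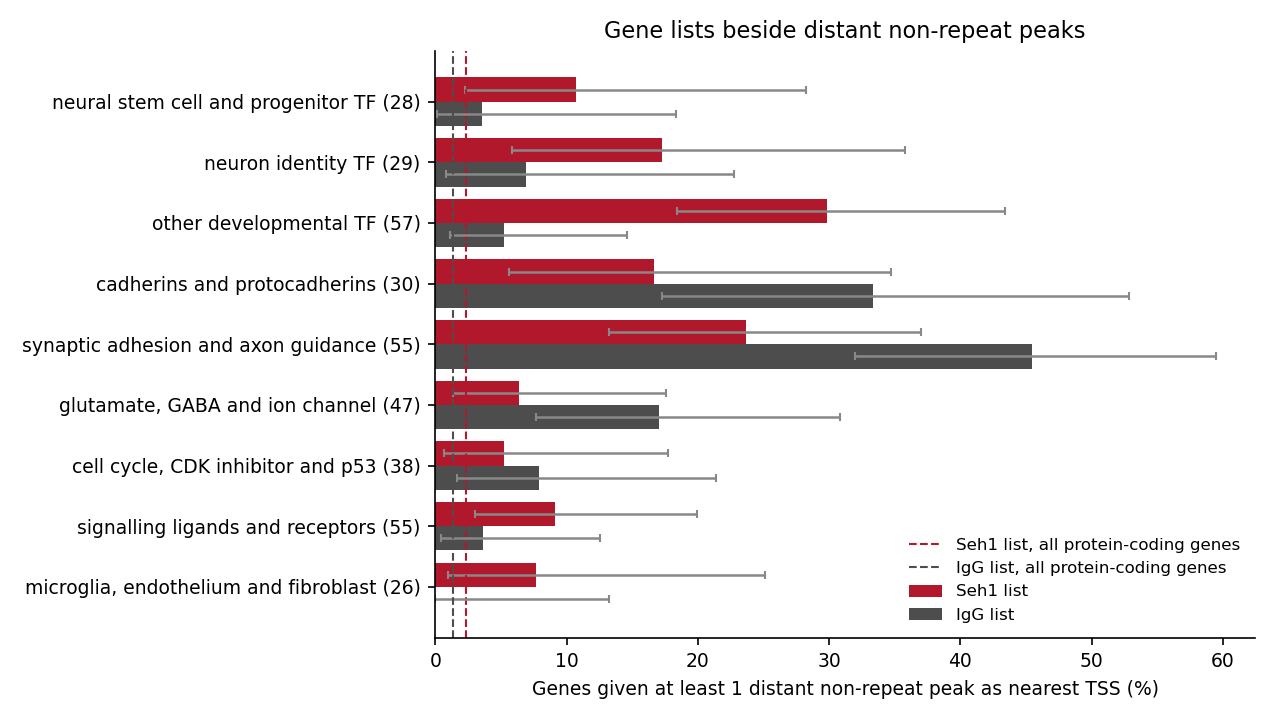
The share of genes in each of 9 lists (number of genes in brackets) that was given at least 1 distant non-repeat peak as nearest TSS (%), for the Seh1 list (red) and the IgG list (grey), with 95% exact binomial intervals; dashed lines mark all protein-coding genes (2.3% for Seh1 and 1.37% for IgG). The Seh1 bar is the longer for other developmental transcription factors (29.8% against 5.26%), and the IgG bar for synaptic adhesion and axon guidance (45.5% against 23.6%).

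Cadherin and protocadherin genes likewise had 5 of 30 with a distant Seh1 peak (16.7%, 5.64 to 34.7%) and 10 of 30 with a distant IgG peak (33.3%, 17.3 to 52.8%). Beside a gap the shares were 18.5% and 37.0%, against 15.3% and 9.79% of all protein-coding genes beside a gap. Distant repeat-labelled peaks given to the cadherin list numbered 35 of 1802 for Seh1 and 21 of 898 for IgG, again the smaller part for Seh1. Cdh13, which encodes T-cadherin, had 3 distant Seh1 peaks between 125.1 and 221 kb upstream and 0 distant IgG peaks. Cdh5, Cdh6 and Cdh11 had 1 each, with 0, 0 and 1 distant IgG peaks, and Pcdh18 had 1 and 2. Pcdh9, a protocadherin gene in a large desert of chromosome 14, had 0 and 4, the IgG peaks 1130 to 1678 kb from its TSS. Of 47 glutamate, GABA and ion channel genes, 3 had a distant Seh1 peak and 8 a distant IgG peak, and they were given 3 and 15 such peaks. The 3 were the potassium channel genes Kcnj6 (102.7 kb), Kcnj3 (340.6 kb) and Kcnq5 (213.1 kb), and Kcnj3 also had 2 distant IgG peaks. Of the genes of this list beside a gap, 9.09% had a distant Seh1 peak and 24.2% a distant IgG peak.

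Signalling genes had 5 of 55 with a distant Seh1 peak and 2 of 55 with a distant IgG peak. Beside a gap the shares were 13.9% and 5.56%, both below the 15.3% and 9.79% of all protein-coding genes beside a gap. Fzd8, a Wnt receptor gene, had 2 distant Seh1 peaks 244.3 and 256.5 kb upstream and 1 distant IgG peak at 283.1 kb. Igf1, Bmp7, Fgfr2 and Shh had 1 each, at 117.8, 128.7, 125.7 and 346.8 kb. The peak of Shh, the morphogen gene whose expression depends on remote enhancers, had the minimum width of 243 bp at chr5:28813759-28814001. Cell cycle, CDK inhibitor and p53 genes had 2 of 38 with a distant Seh1 peak and 3 of 38 with a distant IgG peak. Only 10 of them border a gap, with shares of 10% and 20%. Mki67, the gene of the proliferation marker Ki-67, had 2 Seh1 peaks, 102 and 136.3 kb upstream, and Cdk6 had 1, 107.4 kb upstream, besides 1 distant IgG peak. Genes of microglia, endothelium and fibroblasts, which such a culture could hold, had 2 of 26 (the endothelial genes Cdh5 and Kdr) and 0 of 26. Of the 8 beside a gap the shares were 25% and 0%.

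Intervals of the Seh1 and the IgG share overlapped for every list but other developmental transcription factors. Peaks given to a gene share its desert and are not independent, and nearest does not mean regulated. Distant Seh1 and distant IgG peaks also differed in distance and in the GC content of the promoter windows around them, and the part of either in these counts was not tested.

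Distant Seh1 peaks had the widths of the Seh1 list as a whole. Their median was 268 bp (264 to 271 bp) against 266 bp over all Seh1 peaks, and 28.5% against 27.2% had the minimum of 243 bp. Distant IgG peaks were narrower than their list, with a median of 253.5 bp (241 to 265 bp) against 266 bp over all IgG peaks. Of them 44.7% (40.8 to 48.7%) had the minimum of 236 bp, against 38.0% of all IgG peaks. Peaks over 400 bp made up 9.08% of distant Seh1 and 9.74% of distant IgG peaks. In all, distant Seh1 peaks covered 355.1 kb and distant IgG peaks 189 kb.

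The widest distant Seh1 peak spanned 918 bp, 105.2 kb upstream of 2810429I04Rik (chr13:3372668-3373585). The next, 825 bp, lay in the desert of Cdh26 and 4930591A17Rik (chr2:179210739-179211563). Others were near Nectin1, an adhesion gene (816 bp), Dicer1, the microRNA-processing ribonuclease gene (783 bp), 6820431F20Rik (775 bp), Gm10007 (770 bp), Foxn2, a forkhead factor gene (747 bp), Tle3 (684 bp), Cdh26 (673 bp) and 5730507C01Rik (656 bp). Those near Nectin1 and Foxn2 lay inside the long non-coding RNA genes Gm29909 and Gm31615 of the fuller table. Of the 5 widest distant IgG peaks, 4 were nearest to Olfr161 (2207, 2194, 1727 and 851 bp) and 1 to 6820431F20Rik (957 bp), all in bins with at least 20 IgG peaks.

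Distant Seh1 peaks rarely coincided with IgG peaks. Of 1189, 7 (0.589%, 0.237 to 1.21%) shared at least 1 bp with an IgG peak, against 60 of all 16113 Seh1 peaks (0.372%). Of the 7, 4 were nearest to 6820431F20Rik within chr8:20140469-20146968. The others were near 2810429I04Rik (the widest distant Seh1 peak), near Vmn1r238, a vomeronasal receptor gene (480 bp), and inside Zfp978 (413 bp). Without the bins dense in IgG peaks 2 of the 7 remained. Those bins, defined by their IgG peaks, held 18 distant Seh1 peaks (1.51%) and 50 distant IgG peaks (7.99%). Over the whole lists they held 1.93% of Seh1 and 11.84% of IgG peaks. An IgG peak within 100 kb was found for 27.7% of distant Seh1 peaks, and a Seh1 peak within 100 kb for 50.6% of distant IgG peaks. Over the whole lists these shares were 24.96% and 59.6%. The lists differ in length, so the shares do not compare the antibodies.

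Upstream of their nearest TSS were 523 of 1189 (44.0%, 41.1 to 46.9%), against 348 of 626 distant IgG peaks (55.6%, 51.6 to 59.5%). Over the whole lists the shares were 43.3% of Seh1 peaks and 45.7% of IgG peaks. The whole lists include intron and exon peaks, which lie downstream of the start of their own gene, so they are not a like baseline for intergenic peaks. Non-repeat intergenic peaks within 100 kb were mostly upstream in both lists, with 66.2% for Seh1 and 70.3% for IgG. Distant repeat-labelled peaks were near balance, at 52.7% for Seh1 and 50.8% for IgG. By distance the Seh1 share upstream was 49.2% from 100 to 125 kb and 28.6% (18.4 to 40.6%) from 500 to 1000 kb, and the IgG share was 64.4% and 49.5%. The Seh1 share did not fall steadily. In the bins between it was 52.1, 41.0, 39.9 and 43.9%. Beyond 1000 kb it was 53.3% (26.6 to 78.7%) of 15 Seh1 peaks, and the IgG share was 43.6% of 39 peaks. The nearest gene was protein-coding for 68.6% of distant Seh1 and 66.5% of distant IgG peaks, and a non-coding RNA for 28.2% and 28.6%.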

How the data were processed

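Each deposited list holds 1 line per peak. Per the file headers, the authors annotated peaks with HOMER annotatePeaks.pl on mm10, which gave the class, repeat label, nearest TSS and signed distance in bp (to the peak centre). The deposited score was 0 throughout and was not used. The submitters' processing notes name Bowtie2 and HOMER, give no versions, and list the builds hg18 and hg38, which are human, although headers and genes are mouse. No source used here gives the peak caller, threshold, read filters or read numbers. Peaks were listed per library, and the input library has no list here.

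Members were rows classed Intergenic, with no "|" in the detailed annotation and an absolute distance above 100000 bp. Gene distances, gaps between genes and promoter windows came from RefSeq tables of GRCm38.p6 (the assembly of mm10). Of its genes 394 listed below 3 Mb were left out, and 2 Seh1 members on an unplaced scaffold entered no count by gene distance, gap, density or chromosome. They did enter the counts of bins, neighbours and overlaps. All 1180 Seh1 and 618 IgG members with a gene identifier matched. The 364 genes of the 9 lists matched by symbol. Shares, Clopper-Pearson and Poisson intervals and ratios were computed in Python 3.11.15 with pandas 2.3.3, numpy 2.4.6, scipy 1.17.1 and matplotlib 3.10.9, and the functions were tested on simulated data. Overlap meant at least 1 bp. With 1 library per group no test was made between conditions. Limits of a share of 0 rest on 3 counts.

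Named by rule were the widest, farthest and limit-nearest members, the genes, 1-Mb bins and list genes with the most members, and Seh1 members overlapping IgG peaks; gaps, Pcdh9 and the peaks farthest from any gene were added after their values were seen. Members, lists and rules were chosen with earlier results of these data known.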

Additional observations from a re-analysis of the deposited data

How the results depend on the processing

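Of 54 alternative values, 30 stayed within the counting interval (shares, ratios, widths) or within 1.5 times (counts) of the reported value. Of the rest, the cause was not tested beyond what each setting does by construction. With the limit at 50 kb and 200 kb the share of distant non-repeat peaks, 7.38% of the Seh1 list and 11.8% of the IgG list, was 12.4 and 3.16% for Seh1 and 16.3 and 7.90% for IgG. With no RefSeq gene within 100 kb it was 0.670% for Seh1 and 2.92% for IgG, and among IgG peaks wider than the minimum 10.5%. Seh1 members overlapping an IgG peak fell to 2 without the dense bins, against 7. The Seh1 share upstream was 40.1% beyond 200 kb. Neighbours within 1 kb and 100 kb were found for 1.85 and 79.1% of Seh1 members and 2.88 and 43.5% of IgG members, and within 10 kb without dense bins for 5.56% of IgG members. The density of all peaks in sequence over 100 kb from every gene, over that elsewhere, was 0.405 for Seh1 and 0.821 for IgG. It was 0.533 and 0.938 for distance from protein-coding genes, 0.353 over 200 kb for Seh1, and 0.924 without dense bins for IgG. With non-repeat intergenic peaks only it was 0.270 for Seh1 and 1.40 for IgG, which reversed the IgG direction. Beyond 200 kb, developmental transcription factor genes had 27 (Seh1) and 1 (IgG) in place of 48 and 3, and synaptic genes 7 Seh1 members in place of 16. Wider than the minimum, synaptic genes had 21 IgG members in place of 47. The settings for gene lists and the non-repeat density were chosen after seeing the data. No paired analysis was possible because each group had 1 library. Depth is unknown and there is no replicate, so a short list may miss sites and no difference between the antibodies has a replicate error.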

Other observations

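Chromosomes differed in how many distant non-repeat peaks they held. Distant Seh1 peaks were densest on chromosomes 12 (9.57 per 10 Mb, 7.88 to 11.5), 13 (7.67), 8 (7.53) and 4 (7.11), and sparsest on the sex chromosomes, with 0.895 per 10 Mb on X and 0.771 on Y. Among all Seh1 peaks of a chromosome, however, distant peaks were 4.59% on X and 5.56% on Y. That share was 4.12% on chromosome 10 and 14.55% on chromosome 12. Distant IgG peaks had 4.53, 2.90, 3.80 and 3.26 per 10 Mb on chromosomes 12, 13, 8 and 4, and 0.418 on X. The number of distant Seh1 peaks per distant IgG peak was 6.67 on chromosome 19 (20 and 3 peaks), 4.33 on chromosome 7 (78 and 18) and 3.79 on chromosome 9 (72 and 19), and 0.818 on chromosome 3 (36 and 44).

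By symbol, genes of olfactory and vomeronasal receptors, which lie in large clusters, were nearest to 7 distant Seh1 peaks (0.589%) and 16 distant IgG peaks (2.56%), and all 16 were nearest to Olfr161. Over the whole lists the shares were 1.496% of Seh1 and 3.18% of IgG peaks. MicroRNA genes were nearest to 36 (3.03%) and 30 (4.79%), against 3.43 and 3.33% over the whole lists. Genes with a provisional Gm or Rik name were nearest to 367 (30.9%) and 178 (28.4%), against 19.3 and 22.8%. A single distant Seh1 peak had a CpG island label, at chr4:147275260-147275511, inside the zinc-finger gene Zfp978 of the fuller table and in a bin dense in IgG peaks.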
